A study of Homo sapiens with 6 samples.

Results

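The genes described here are 46 genes listed under DNA end joining, mismatch repair, translesion synthesis and DNA damage signalling. The rule that selects them uses gene symbols and no measured value, though the set was proposed with earlier results of these data known. Each symbol matched 1 of the 60483 gene rows in the deposited count table. They were grouped here as 18 end joining, 5 mismatch repair, 8 translesion synthesis and 15 damage signalling genes, though a gene may also act elsewhere. The study asked how loss of HELLS, a chromatin remodelling ATPase, affects DNA repair, and it sequenced RNA from HAP1 and HELLS KO cells with 3 libraries per genotype. HAP1 is a near-haploid human line derived from a chronic myelogenous leukemia, and the samples are labelled as its C631 parental strain with wild-type HELLS. The HELLS KO cells are 1 purchased clone of HAP1 with an insertion of a single base in exon 3 of HELLS. Cells of both genotypes were labelled as kept in normal growth, so no DNA damaging agent was added and the values are basal transcript levels. Since the knockout is 1 clone, differences between clones and effects of HELLS cannot be told apart, and the methods call the RNA samples biological replicates without saying whether they came from separate cultures, so the p-values measure the spread between these libraries only.

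Non-homologous end joining holds the ends of a double-strand break with the Ku heterodimer and DNA-PK, trims or fills them, and seals them with the XRCC4 and LIG4 ligase complex, while TP53BP1, RIF1 and shieldin keep the ends from being resected. Mismatch repair corrects errors left by replication, and translesion polymerases copy templates that block the replicative polymerases. Damage signalling begins with the kinases ATM and ATR, which act through CHEK1, CHEK2, the histone variant H2AX and a series of mediators to slow the cell cycle and recruit repair factors.

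Total counts per library lay between 13641237 and 24400187, and replicate 3 of each genotype, which carries a batch label, was the deepest. HELLS itself had 1444, 1488 and 3671 counts in HAP1 and 1410, 1375 and 2802 counts in HELLS KO. The log2 fold change was -0.24 with a standard error of 0.18, it ran from -0.35 without HAP1 replicate 1 to -0.03 without HAP1 replicate 3, and a count per gene cannot reveal a frameshift, so this value is a weak check of the labels. Of 12 leukocyte markers listed, 5 had at most 3 counts in every library, including SPI1 and HBG1 at 0 counts. A count of 0 allows up to between 0.123 and 0.220 CPM, for counting error only. Among the rest, CD34 had 2 to 10 counts and CD33 2 to 19 counts. TAL1, a haematopoietic transcription factor, had far more, 1137 to 2400 counts. Among 6 fibroblast markers, COL1A1 had 600 to 1103 counts and DCN and LUM had 0. Summed over each list, the leukocyte markers held 88.5 to 103 CPM in HAP1 and 81.2 to 83.9 CPM in HELLS KO, and the fibroblast markers 39.5 to 82.9 and 39.9 to 54.3 CPM. None of the 3 tested genes in either list was called. Their log2 fold changes ran from -1.13 to 0.12 in the leukocyte list and from -0.58 to 0.12 in the fibroblast list.

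None of the damage response genes differed detectably between the genotypes. A gene was called when edgeR's quasi-likelihood test gave a Benjamini-Hochberg adjusted p under 0.05 and the absolute log2 fold change was at least 1. Of the 46 genes, 45 passed the filter on low counts and were tested, and 0 were called higher or lower in HELLS KO. Over all 17925 tested genes, 398 were called, which is 2.22%, with 1.5% higher and 0.72% lower in HELLS KO. Members with an unadjusted p under 0.05 also numbered 0 in edgeR and 0 in DESeq2, whereas 6.59% of all tested genes had such a p in edgeR. The adjusted p from edgeR was 1.0 for every tested member, and the lowest unadjusted p was 0.14, for HUS1. In bulk RNA of this kind, fewer cells expressing a gene and less RNA per cell cannot be told apart.

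Fold changes of the members were small next to their errors. The log2 fold changes of HELLS KO against HAP1 had a median of 0.028 over the 45 members and 0.006 over all tested genes. Their median absolute size was 0.063, against 0.103 over all tested genes, and their median standard error was 0.211, against 0.233. By pathway the median log2 fold change was 0.027 for end joining, -0.007 for mismatch repair, 0.048 for translesion synthesis and 0.028 for damage signalling. Estimates were above 0 for 27 members and below 0 for 18, and they ran from -0.44 for ATRIP to 0.39 for SHLD3. For 39 of the 45 members the 95% interval of the fold change lay inside a 2-fold change in either direction, which held for 67.8% of all tested genes. The 6 members whose interval reached past 2-fold were SHLD3, LIG4, MLH3, REV3L, ATM and ATRIP, so that for these a 2-fold change is not excluded by the interval. For 24 members the interval lay inside a 1.5-fold change.

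Same-numbered replicates deviated together from their genotype means, most clearly replicate 3, while replicates 1 and 2 did so across numbers as well. A fit with the replicate number as a block narrowed the intervals. The median standard error of the members fell to 0.114 in that fit, and 43 of 45 intervals lay inside 2-fold, against 77.1% of all tested genes. Only MLH3 and ATRIP, which are the members with the fewest counts among those tested, stayed outside, and 40 intervals lay inside 1.5-fold. No member was called with the block, where 3.51% of all tested genes were, 2.03% higher and 1.49% lower in HELLS KO. Estimates were then above 0 for 24 members and below 0 for 21. HUS1 alone had an unadjusted p under 0.05, against 11.6% of all tested genes, and the adjusted p that edgeR gave it was 0.34.

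**Figure D1:**
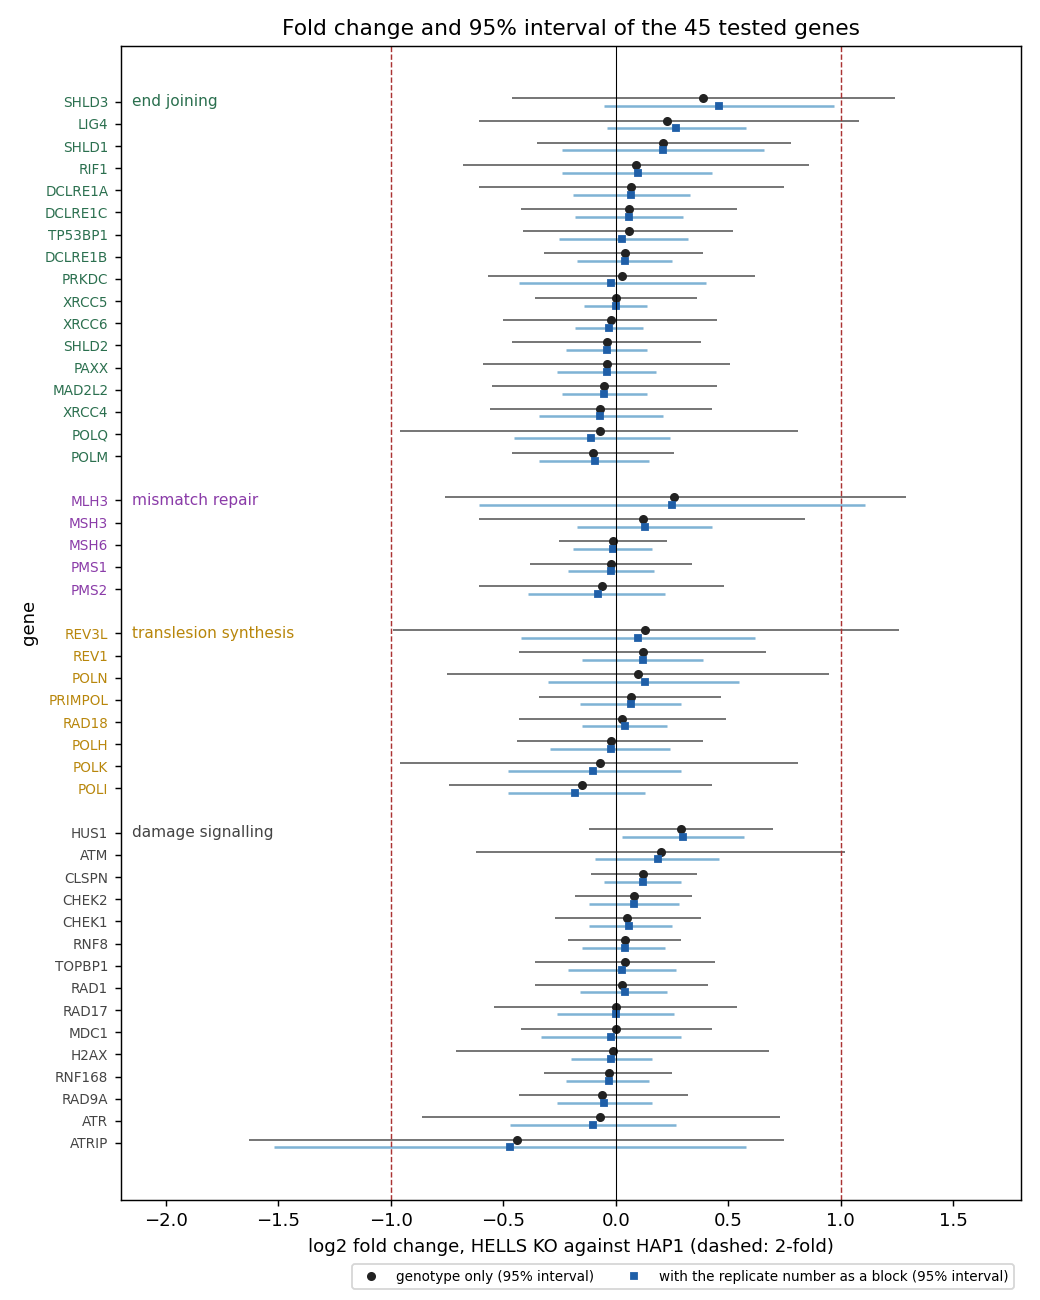
Log2 fold change of HELLS KO against HAP1 (x axis) for the 45 tested genes (y axis, grouped by pathway). The 95% intervals were computed from the edgeR fits with genotype only (black circles) and with the replicate number as a block (blue squares). Dashed lines mark a 2-fold change. Intervals of 39 genes lie inside the lines with genotype only and 43 with the block, and the estimates run from -0.44 for ATRIP to 0.39 for SHLD3.

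Abundance differed far more between members than between genotypes. Levels were compared between genes as FPKM, the authors' fragment counts scaled to library size and transcript length, because CPM takes no account of length. The mean FPKM over the 6 libraries ran from 0.115 for MLH3 to 66.6 for H2AX, with a median of 12.8. The 5 most abundant transcripts were H2AX, the histone variant phosphorylated at breaks, then XRCC6 and XRCC5, the 2 Ku subunits, then PAXX, a Ku-binding scaffold, and PRKDC, the catalytic subunit of DNA-PK. Their mean levels were 66.6, 62.7, 50.7, 49.0 and 35.6 FPKM. The ranges of neighbours in this order overlapped between libraries, H2AX spanning 42.6 to 80.9 FPKM and XRCC6 47.5 to 71.1 FPKM, so that most of this order is not resolved. XRCC5 lay below XRCC6 in every library.

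Within mismatch repair MSH6, which recognises base mismatches, was the most abundant at 20.4 ± 0.470 FPKM in HAP1 and 20.2 ± 1.55 FPKM in HELLS KO (SD, n = 3). MSH3, which recognises larger loops, stood lower at 10.5 ± 3.75 and 11.4 ± 3.61 FPKM. PMS2, an endonuclease subunit that acts after recognition, and its paralogue PMS1 had means over all libraries of 12.7 and 14.8 FPKM. Among the translesion genes, PRIMPOL, which restarts synthesis past a block by repriming, and RAD18, the ubiquitin ligase that marks PCNA, both averaged 14.8 FPKM. The polymerase genes POLH, REV3L, POLK and POLI, which encode polymerases eta, zeta, kappa and iota, averaged 13.8, 5.96, 4.22 and 4.21 FPKM.

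At the bottom of the order stood MLH3, NHEJ1, ATRIP and POLN, whose means were 0.115, 0.169, 0.222 and 0.867 FPKM. MLH3 encodes a partner in mismatch repair and meiotic recombination, NHEJ1 the end joining scaffold XLF, ATRIP the obligate partner of ATR, and POLN a polymerase of limited expression. NHEJ1 had 8, 10 and 12 counts in HAP1 and 7, 5 and 14 counts in HELLS KO, and it was the 1 member that the filter removed. ATRIP had 9, 11 and 28 counts in HAP1 and 11, 4 and 21 counts in HELLS KO. MLH3 had 16, 9 and 21 counts in HAP1 and 21, 9 and 27 counts in HELLS KO. At such counts the 95% interval of ATRIP ran from a log2 fold change of -1.63 to 0.75 and that of MLH3 from -0.76 to 1.29, so a 2-fold difference was not resolved.

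NHEJ1 and ATRIP share annotated exon sequence with another gene, and the part of this in their low counts was not tested. All 897 coding bases of NHEJ1 in the GENCODE release 44 annotation of GRCh38 (chromosome 2, 219069355 to 219160869, minus strand), or 100%, also lie in exons of an annotated readthrough gene on the same strand, ENSG00000280537, which itself had 3 to 14 counts. ATRIP (chromosome 3, 48446710 to 48467645, plus strand) overlaps TREX1, an exonuclease gene, which was listed at 0 counts in all 6 libraries. The overlap takes 26.7% of the exon bases of ATRIP and 0% of its coding bases. How the authors' counting treated reads that fall on 2 genes is not given in the sources used here. MLH3 (chromosome 14, 75013769 to 75051532, minus strand) overlaps no other gene's exons in this annotation. POLN shares 49.4% of its exon bases with annotated genes on the same strand, among them HAUS3, a spindle gene with 678 to 1791 counts, which covers 4.93% of the coding bases of POLN.

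**Figure D2:**
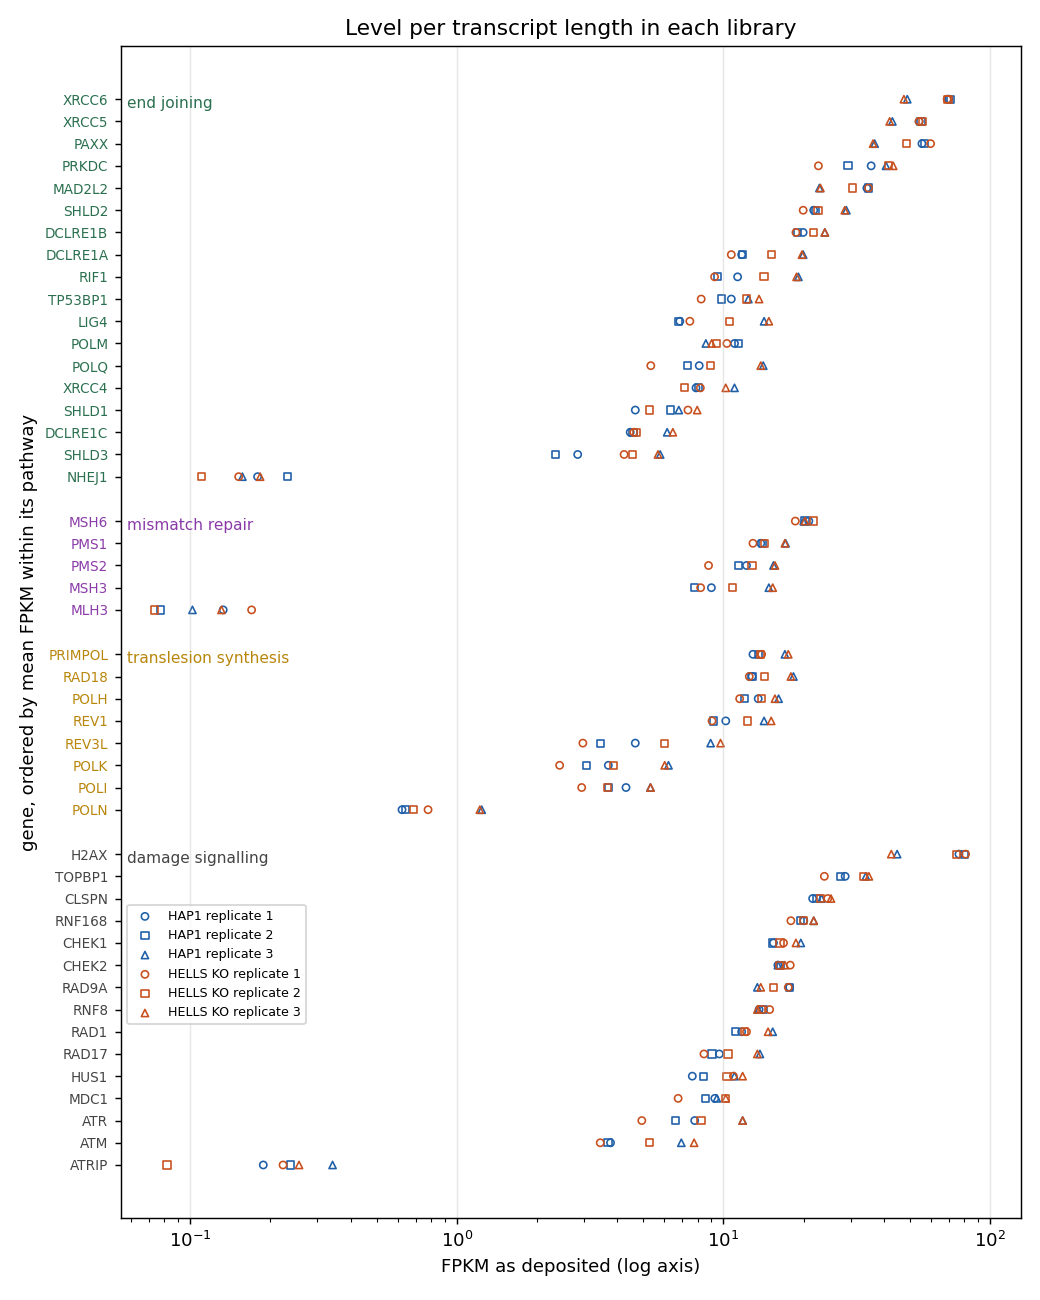
Deposited FPKM (x axis, log scale) of the 46 genes (y axis, ordered by mean within each pathway) in each of the 6 libraries, with colour for genotype and symbol shape for replicate number. Means run from 0.115 FPKM for MLH3 to 66.6 FPKM for H2AX, and for most genes the replicate 3 triangles of both genotypes lie together, apart from replicates 1 and 2.

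Promoter sequences were examined for letters shared by the members. Of the 46 members 41 had a window in the RefSeq promoter table (GRCh38.p14), which covers 250 bases before and 50 after the start of the gene. Of these windows, 40 of 41, or 97.6%, held at least 10 CpG, against 87.6% of the tested genes and 56% of all genes with a window. The median of 27 CpG was close to that of the tested genes, 26, and above the 14 of all genes with a window. The CCAAT letters, which read as ATTGG on the opposite strand, were searched on both strands and occurred in 18 of 41, or 43.9%, against 36.5% of the tested genes and 35.7% of all genes. Letters of E2F sites, searched on both strands as TTCCCGC and in a variant form as TTGGCGC, occurred in 11 members, or 26.8%, against 14.5% and 9.33%. TATAAA occurred in H2AX and DCLRE1C only, or 4.88%, against 3.67% and 7.71%. The 250 bases before the start are shown for H2AX, the most abundant member, for CLSPN, which was higher in HELLS KO in all 3 replicate numbers, and for SHLD3, which had the highest log2 fold change. Capitals mark the CCAAT letters on either strand, TATAAA and the E2F letters, a description of letters and not of bound sites. The bases shown are chr11:119095466-119095715 on the minus strand for H2AX, chr1:35769979-35770228 on the minus strand for CLSPN and chr5:65624777-65625026 on the plus strand for SHLD3, all in GRCh38.p14.
H2AX promoter: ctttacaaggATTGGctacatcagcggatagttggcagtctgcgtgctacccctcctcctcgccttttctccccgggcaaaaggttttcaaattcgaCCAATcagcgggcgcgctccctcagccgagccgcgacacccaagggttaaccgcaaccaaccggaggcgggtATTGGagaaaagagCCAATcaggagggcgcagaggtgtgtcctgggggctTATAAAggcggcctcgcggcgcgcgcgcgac
CLSPN promoter: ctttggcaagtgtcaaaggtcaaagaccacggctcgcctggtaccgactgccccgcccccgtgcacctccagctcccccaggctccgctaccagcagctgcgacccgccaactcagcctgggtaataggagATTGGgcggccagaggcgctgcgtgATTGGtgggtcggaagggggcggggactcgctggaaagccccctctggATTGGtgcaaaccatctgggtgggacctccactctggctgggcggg
SHLD3 promoter: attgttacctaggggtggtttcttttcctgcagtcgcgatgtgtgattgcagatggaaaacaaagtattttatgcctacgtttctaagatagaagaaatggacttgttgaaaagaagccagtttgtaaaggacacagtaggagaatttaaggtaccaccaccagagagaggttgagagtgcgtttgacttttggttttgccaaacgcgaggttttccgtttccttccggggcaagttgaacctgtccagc
The bases shown for H2AX held 4 matches to CCAAT on either strand and the TATAAA letters close to the start of the gene. CLSPN held 3 CCAAT matches. It is 1 of the 11 members counted with E2F letters, but that match does not lie within the 250 bases shown. SHLD3 held none of the searched letters in these 250 bases. CpG numbered 23, 15 and 8 in the 250 bases shown for H2AX, CLSPN and SHLD3. In their full windows of 300 bases CpG numbered 28, 18 and 10.

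The Ku and DNA-PK genes showed almost no difference between genotypes. XRCC6, which encodes the smaller Ku subunit, had 232, 236 and 165 CPM in HAP1 and 230, 234 and 158 CPM in HELLS KO, where CPM is the count scaled to library size with edgeR's TMM factors. It was lower in HELLS KO in all 3 replicate numbers, the only tested member of which this was true, against 16.3% of all tested genes. The differences were small, with a log2 fold change of -0.02 (95% interval -0.50 to 0.45) and of -0.03 (-0.18 to 0.12) with the replicate block. XRCC5, the larger Ku subunit, had 281 ± 35.4 CPM in HAP1 and 281 ± 43.2 CPM in HELLS KO (SD, n = 3). PRKDC had 558, 456 and 643 CPM in HAP1 and 355, 657 and 676 CPM in HELLS KO. Its lowest and highest values both fell in HELLS KO, so the genotypes overlapped and the log2 fold change was 0.03 (95% interval -0.57 to 0.62).

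In the ligation complex LIG4, the ligase of end joining, had the largest estimate. LIG4 had 30.4, 30.0 and 63.7 CPM in HAP1 and 33.3, 47.1 and 65.7 CPM in HELLS KO. HELLS KO was higher in each replicate number, but the genotypes overlapped widely, and the log2 fold change of 0.23 had a 95% interval of -0.61 to 1.08. Without HAP1 replicate 3 it was 0.69, the highest value with 1 library left out, and the lowest was -0.05. The fit without HAP1 replicate 3 keeps replicate 3 of HELLS KO alone, and LIG4 was higher in replicate 3 of both genotypes. XRCC4, which stabilises the ligase, had 24.4 ± 4.90 CPM in HAP1 and 23.2 ± 4.11 CPM in HELLS KO (SD, n = 3). PAXX, a scaffold of the complex, had a log2 fold change of -0.04 (95% interval -0.59 to 0.51).

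End processing genes differed by at most 0.10 on the log2 scale. POLM, a polymerase that fills gaps at ends, had 49.6, 51.7 and 39.4 CPM in HAP1 and 46.9, 43.3 and 41.0 CPM in HELLS KO. The estimate of -0.10 (95% interval -0.46 to 0.26) was the third lowest of the members, and the 2 genotypes overlapped. The nuclease genes DCLRE1A, DCLRE1B and DCLRE1C, the last of which encodes Artemis, were grouped here with end processing. They had log2 fold changes of 0.07, 0.04 and 0.06. POLQ, the polymerase of theta-mediated end joining, had 94.2 ± 36.4 CPM in HAP1 and 89.4 ± 40.0 CPM in HELLS KO (SD, n = 3). The spread of POLQ within each genotype was many times the difference between them.

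Of the genes that protect ends from resection, SHLD3 had the highest log2 fold change of all members, while that of ATRIP, -0.44, was larger in size. SHLD3, the shieldin subunit that acts in recruiting the complex downstream of RIF1, had 5.63, 4.66 and 11.6 CPM in HAP1 and 8.45, 9.17 and 11.3 CPM in HELLS KO. Its values in HELLS KO replicates 1 and 2 lay above those of HAP1 replicates 1 and 2, while the replicate 3 libraries were nearly equal, so the genotypes overlapped. The log2 fold change was 0.39 (standard error 0.36, 95% interval -0.46 to 1.24), and 0.46 (0.22, -0.05 to 0.97) with the replicate block. Without HAP1 replicate 3 it was 0.91 (adjusted p = 0.15 from edgeR), and without HAP1 replicate 2 it was 0.15. The first of these fits keeps replicate 3 of HELLS KO alone. With replicates 1 and 2 only, the log2 fold change was 0.76 (adjusted p = 0.15 from edgeR). SHLD3 rested on 64 to 279 counts per library. SHLD1, another shieldin subunit, had 10.3 ± 1.99 CPM in HAP1 and 11.9 ± 2.35 CPM in HELLS KO (SD, n = 3). The rest of the group, TP53BP1, RIF1, SHLD2 and MAD2L2, had log2 fold changes of 0.06, 0.09, -0.04 and -0.05.

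Mismatch repair genes were close to equal in the 2 genotypes. MSH6 had 232, 224 and 225 CPM in HAP1 and 208, 245 and 224 CPM in HELLS KO. The HAP1 values lay inside the range of HELLS KO, and the log2 fold change of -0.01 had a 95% interval of -0.25 to 0.23, among the narrowest of the members. MSH3 had 42.8, 37.0 and 71.3 CPM in HAP1 and 39.2, 52.0 and 73.1 CPM in HELLS KO, and its log2 fold change was 0.12 (95% interval -0.61 to 0.84). PMS1 and PMS2 had log2 fold changes of -0.02 and -0.06. MLH3, on few counts, had an estimate of 0.26 (standard error 0.44), which was -0.00 without HELLS KO replicate 1 and 0.52 without HELLS KO replicate 2.

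Among translesion genes POLI had the lowest estimate. POLI, which encodes polymerase iota, had 41.1, 35.5 and 51.5 CPM in HAP1 and 28.3, 35.8 and 51.1 CPM in HELLS KO. HELLS KO replicate 1 was the lowest library, and replicates 2 and 3 were almost equal between genotypes. The log2 fold change was -0.15 (95% interval -0.74 to 0.43), and it was 0.02 without HELLS KO replicate 1. REV3L, the catalytic subunit of polymerase zeta, had 58.5, 43.3 and 114 CPM in HAP1 and 37.5, 76.5 and 123 CPM in HELLS KO. Replicate 3 was the highest library in both genotypes, and the interval of REV3L, -0.99 to 1.26, was among the widest of the set. PRIMPOL had 37.0, 38.7 and 49.4 CPM in HAP1 and 40.1, 40.4 and 50.4 CPM in HELLS KO, higher in HELLS KO in each replicate number by a log2 fold change of 0.07 (-0.34 to 0.47). POLN had 4.85, 5.02 and 9.80 CPM in HAP1 and 6.12, 5.46 and 9.57 CPM in HELLS KO, again with overlapping genotypes. POLH, POLK, REV1, a scaffold for the other translesion polymerases, and RAD18 had log2 fold changes of -0.02, -0.07, 0.12 and 0.03.

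Among the signalling kinases ATM and ATR had estimates of opposite sign, each smaller than its error. ATM, which responds to double-strand breaks, had 84.9, 83.2 and 159 CPM in HAP1 and 78.1, 121 and 175 CPM in HELLS KO, and its log2 fold change was 0.20 (95% interval -0.62 to 1.02). ATR, which responds to single-stranded DNA at stalled forks, had 98.3, 83.4 and 151 CPM in HAP1 and 62.8, 106 and 150 CPM in HELLS KO, and its log2 fold change was -0.07 (-0.86 to 0.73). The genotypes overlapped for both kinases. CHEK2, the kinase downstream of ATM, had 66.7, 68.6 and 67.7 CPM in HAP1 and 74.7, 68.9 and 71.3 CPM in HELLS KO. CHEK2 was the 1 tested member whose libraries did not overlap between genotypes, against 10.1% of all tested genes (4.99% higher and 5.09% lower in HELLS KO), and its log2 fold change was 0.08 (-0.18 to 0.34). CHEK1, the kinase downstream of ATR, had 111 ± 16.8 CPM in HAP1 and 115 ± 7.69 CPM in HELLS KO (SD, n = 3). ATRIP had 0.633, 0.800 and 1.17 CPM in HAP1 and 0.756, 0.280 and 0.863 CPM in HELLS KO, the lowest value being that of HELLS KO replicate 2. Without that library the log2 fold change of ATRIP was -0.11, and without HELLS KO replicate 3 it was -0.76.

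Chromatin mediators, which mark and read the damaged site, had log2 fold changes between -0.03 and 0.04. H2AX had 124, 131 and 74.0 CPM in HAP1 and 133, 124 and 69.6 CPM in HELLS KO, with replicate 3 the lowest in both genotypes. Its log2 fold change was -0.01 (95% interval -0.71 to 0.68), and -0.02 (-0.20 to 0.16) with the replicate block. MDC1, the adaptor that binds phosphorylated H2AX, had a log2 fold change of 0.00, and the ubiquitin ligase genes RNF8 and RNF168 had 0.04 and -0.03. For the replication mediators TOPBP1 and CLSPN, activators of ATR and CHEK1, it was 0.04 and 0.12. CLSPN had 118, 122 and 129 CPM in HAP1 and 135, 128 and 138 CPM in HELLS KO. The genotypes overlapped, since HELLS KO replicate 2 lay below HAP1 replicate 3.

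The checkpoint clamp held the member with the lowest p. HUS1, which forms a ring with RAD9A and RAD1 that RAD17 loads at damaged DNA, had 32.2, 35.5 and 47.1 CPM in HAP1 and 46.4, 44.2 and 49.8 CPM in HELLS KO. HELLS KO was higher in each replicate number, but HAP1 replicate 3 lay above HELLS KO replicates 1 and 2. The log2 fold change was 0.29 (standard error 0.17, 95% interval -0.12 to 0.70), and 0.30 (0.12, 0.03 to 0.57) with the replicate block. Leaving out HAP1 replicate 3 raised it to 0.47 (adjusted p = 0.22 from edgeR) and leaving out HAP1 replicate 1 lowered it to 0.18. RAD9A, RAD1 and RAD17 had log2 fold changes of -0.06, 0.03 and 0.00. The 95% intervals of RAD9A and RAD1, -0.43 to 0.32 and -0.36 to 0.41, contain the estimate of HUS1, and the differences between these genes were not tested. Without HAP1 replicate 3, SHLD3, HUS1 and LIG4 had an unadjusted p under 0.05 in edgeR and none was called. That fit keeps replicate 3 of HELLS KO alone, and these genes were higher in replicate 3 of both genotypes. Genotype and replicate 3 therefore cannot be fully told apart in it. With replicates 1 and 2 only, SHLD3 and HUS1 had such a p, at log2 fold changes of 0.76 and 0.40, and none was called.

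**Figure D3:**
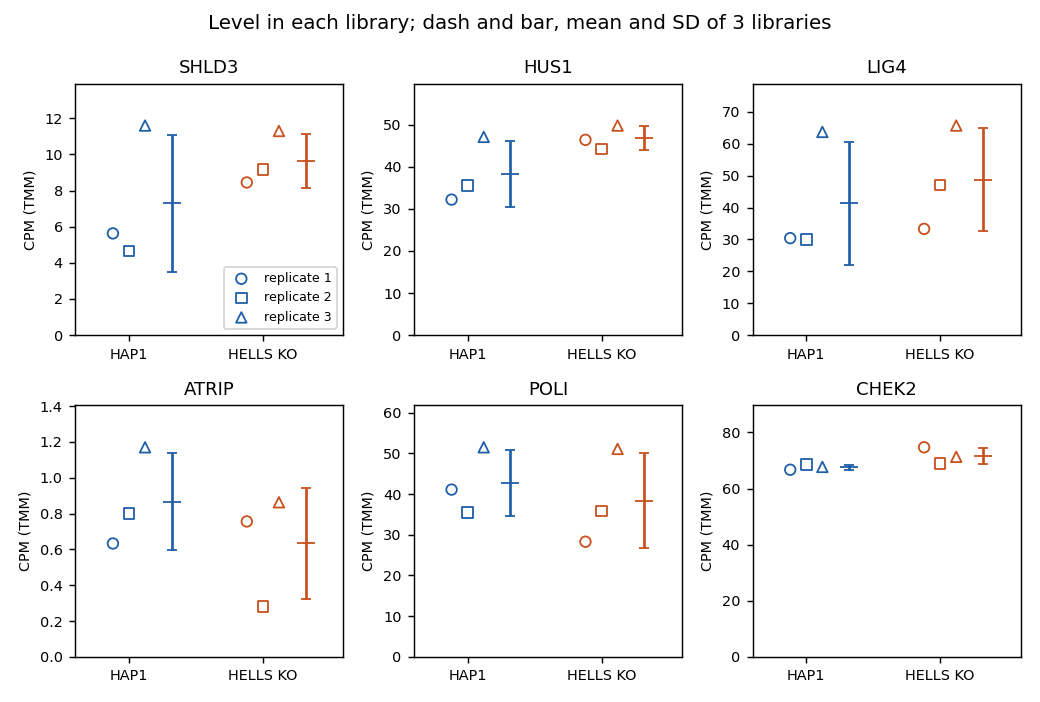
CPM after TMM scaling (y axis, from 0) of SHLD3, HUS1, LIG4, ATRIP, POLI and CHEK2 in each library of HAP1 and HELLS KO (x axis), with symbols for replicate number and, beside them, the mean and SD of 3 libraries. Replicate 3 of both genotypes lies above replicates 1 and 2 for the first 5 genes, and only CHEK2, at 66.7 to 68.6 CPM in HAP1 and 68.9 to 74.7 CPM in HELLS KO, has genotypes that do not overlap.

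Across the set, 6 members were higher in HELLS KO in all 3 replicate numbers, against 14.8% of all tested genes. These were LIG4, DCLRE1C, PRIMPOL, CHEK2, CLSPN and HUS1, with XRCC6 the 1 member that was lower in all 3, and none of them passed the test.

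Ratios of partner genes within a library were compared for 15 pairs whose products work together. Each ratio is the log2 of the count of one gene over that of the other in the same library, so it carries no scaling between libraries. With 3 libraries a genotype, the smallest p that a two-sided exact permutation test can give is 0.10, so no pair could pass a threshold of 0.05. ATM and ATR reached this p, with log2 ratios of -0.21, -0.00 and 0.07 in HAP1 and 0.32, 0.20 and 0.23 in HELLS KO. All 3 HELLS KO ratios lay above all 3 HAP1 ratios, and the difference of 0.296 stayed between 0.215 and 0.354 with each library left out (exact permutation p = 0.10, adjusted over 15 pairs p = 0.9). XRCC5 and XRCC6, whose products form a dimer, had log2 ratios of 0.42 ± 0.10 (SD, n = 3) in HAP1 and 0.45 ± 0.09 in HELLS KO. These values were nearly constant, and on the FPKM scale XRCC5 stood at 0.773 to 0.884 of XRCC6 in every library.

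Of the other pairs, XRCC4 and LIG4 had ratios of -0.51, -0.46 and -1.08 in HAP1 and -0.58, -1.26 and -1.24 in HELLS KO. The difference of -0.342 was within the spread between libraries (exact permutation p = 0.2, adjusted p = 0.9). Taken by replicate number, all 3 differences had 1 sign for XRCC4/LIG4, ATM/ATR, MSH6/MSH3 and XRCC5/XRCC6, each with an exact sign-flip p of 0.25, the smallest that 3 pairs can give. MSH6 and MSH3, which compete for a common partner, had log2 ratios of 2.23 ± 0.50 and 2.09 ± 0.41 (SD, n = 3). Replicate 3 was the lowest library of each genotype for this pair, at 1.66 and 1.62. CHEK1 and CHEK2, the 2 checkpoint kinases, had 0.71 ± 0.21 and 0.69 ± 0.11. REV3L and MAD2L2, both subunits of polymerase zeta, had the widest spread of the pairs plotted, from -1.66 in HELLS KO replicate 1 to 0.66 in HELLS KO replicate 3.

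**Figure D4:**
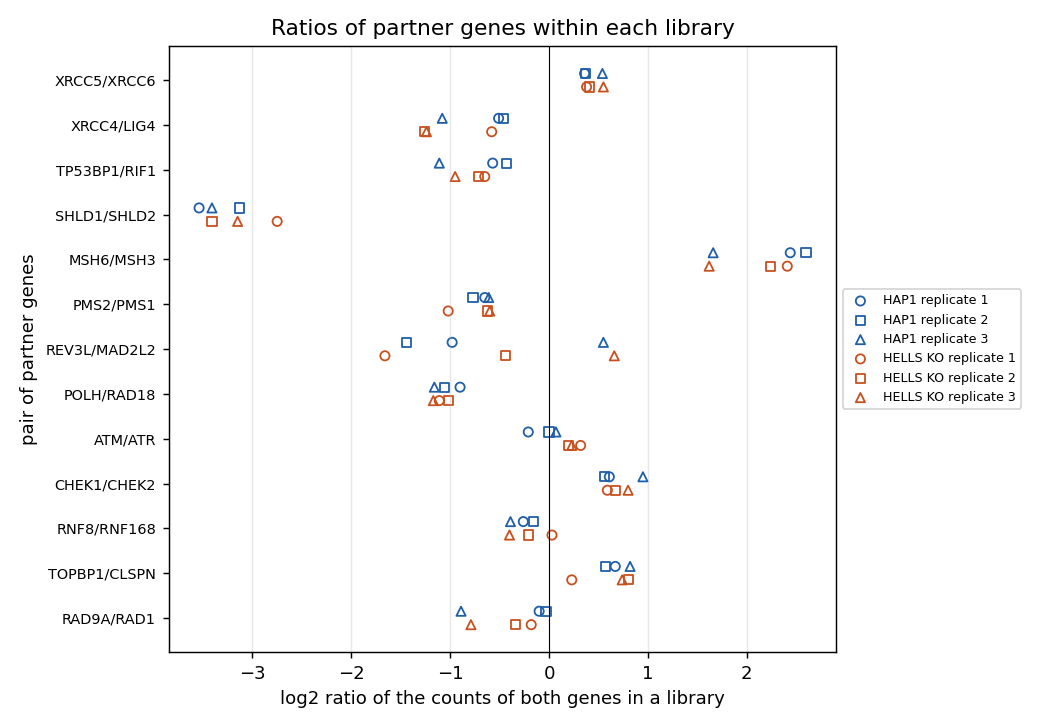
Log2 ratio of the counts of partner genes (x axis) in each library for 13 pairs (y axis), with colour for genotype and symbol for replicate number. The pairs with NHEJ1 and ATRIP are left out because of their few counts, and only for ATM and ATR do the 3 HELLS KO ratios, 0.20 to 0.32, all lie above the 3 HAP1 ratios, -0.21 to 0.07.

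Differences between replicate 3 and the other libraries exceeded the genotype differences for nearly all members. Replicate 3 had 1.73 times the total counts of replicates 1 and 2 in HAP1 and 1.68 times in HELLS KO. H2AX did not grow with depth, with 1770, 1794 and 1775 counts in HAP1 and 1930, 1770 and 1695 counts in HELLS KO. REV3L grew more than depth, with 832, 595 and 2728 counts in HAP1 and 545, 1092 and 2983 counts in HELLS KO. The ratio of replicate 3 to the mean of replicates 1 and 2 was 0.996 and 0.916 for H2AX and 3.82 and 3.64 for REV3L in HAP1 and HELLS KO. On the log2 CPM scale, replicate 3 was above in both genotypes for 35 members and below in both for 9, and 1 member differed in sign. The size of this difference exceeded that of the genotype for 42 of 45 members, with medians of 0.445 and 0.06. The 3 exceptions were CHEK2, CLSPN and MLH3.

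Of the 9 members that were lower in replicate 3 of both genotypes, H2AX, XRCC6, XRCC5, PAXX and MAD2L2 had over 0.5 counts per base. The others, MSH6, RAD9A, RNF8 and POLM, had 0.173 to 0.360. Bases here are those of the gene length used for FPKM. PRKDC and TOPBP1, with 0.655 and 0.557 counts per base, were higher in replicate 3 of both genotypes. XRCC6 and H2AX, the 2 members with at least 1 count per base, had ratios of counts between 0.916 and 1.21, where the median of all genes in that range was 1.21 in HAP1 and 1.17 in HELLS KO. The 24 members between 0.1 and 0.3 counts per base sat where the median of all genes was 1.92 and 1.83. Several stood well above it, such as LIG4 at 3.62 and 2.76, POLQ at 3.18 and 3.22 and RIF1 at 3.18 and 2.69. Over the 45 members, the Spearman rho of the replicate 3 difference with counts per base was -0.632 as a description, against -0.188 over all tested genes, and the points share the same 6 libraries. The authors removed duplicated reads before counting, and its part in these values was not tested.

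**Figure D5:**
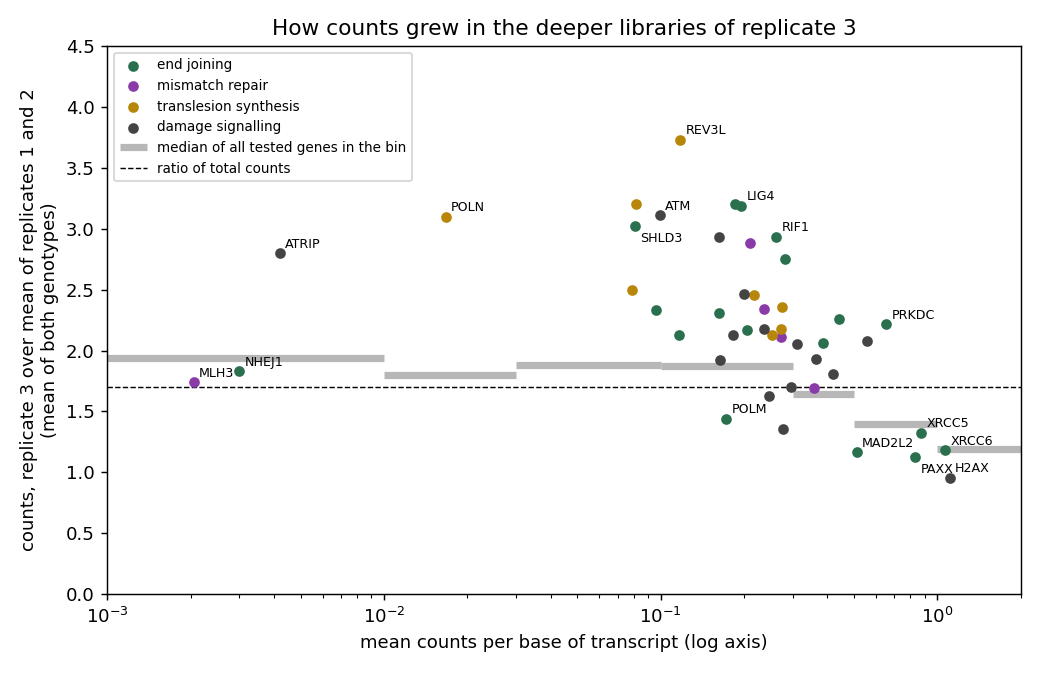
Ratio of replicate 3 counts to the mean of replicates 1 and 2, averaged over genotypes (y axis), against mean counts per base of the gene length used for FPKM (x axis, log scale) for the 46 genes, coloured by pathway. Grey bars give the median of all genes in each range and the dashed line the mean ratio of total counts, and H2AX, XRCC6, PAXX, XRCC5 and MAD2L2 lie below the line, PRKDC at a similar number of counts per base lies above it, and REV3L lies highest.

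HELLS KO replicates 1 and 2 differed for the members with the longest gene lengths. The 10 tested members with a length of at least 9000 bases, as used for FPKM, were PRKDC, POLQ, TP53BP1, RIF1, MSH6, POLI, POLK, REV3L, ATM and ATR. Their log2 CPM was higher in replicate 2 than in replicate 1 of HELLS KO by a median of 0.655 (range 0.24 to 1.03). The 35 shorter members had a median of 0.02, with a range of -1.40 to 0.61, so that some of them, such as MDC1 at 0.61 and PMS2 at 0.56, differed as much as the long ones. PRKDC, with 5163 and 9379 counts in these 2 libraries, and REV3L, with 545 and 1092, show the difference. Between HAP1 replicates 1 and 2 the same 10 genes had a median of -0.225. The Spearman rho of the difference with length was 0.615 over the members for HELLS KO and 0.422 over all tested genes, given as a description. These long genes include REV3L and ATM, whose intervals reached past 2-fold, and the part of length in that result was not tested.

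Sequence in common with other genes was found for some members. As the share of stretches of 31 bases in annotated transcripts that also occur in another gene's transcripts, it was at least 20% for 10 members and under 5% for 18. SHLD2 had the largest share, 67.7%, with 50.4% in the pseudogene SHLD2P1. POLN followed with 50.3%, of which 45.7% lay in the annotated gene ENSG00000290263. For PMS2 the share was 32.5%, and for XRCC6 29%, of which 21.6% lay in the pseudogene XRCC6P2. Either strand was searched, so the share also holds genes that overlap a member at the same place. Examples are ENSG00000290263 for POLN, on the same strand, and TUBGCP4 for TP53BP1, on the opposite strand. The share is therefore not a measure of reads lost. Reads with a mapping quality under 20 had been removed by the authors, and the part of this in the levels was not tested.

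Other genes of the same pathways gave the same picture. From hand-written lists, 12 of 14 other end joining genes, 16 of 17 other mismatch repair genes, 10 of 10 other translesion genes and 25 of 25 other signalling genes were tested. In each list 0 genes were called and 0 had an unadjusted p under 0.05 in edgeR, with and without the replicate block. Median log2 fold changes were -0.029, 0.027, 0.037 and -0.004, against 0.006 over all tested genes. The lowest estimate was -0.56, for POLD4, a subunit of polymerase delta, which had 5.14 ± 1.82 CPM in HAP1 and 3.49 ± 1.75 CPM in HELLS KO (SD, n = 3). MSH5, a meiotic member of the mismatch family, had the highest, 0.27 (standard error 0.55).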

How the data were processed

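RNA-seq libraries of HAP1 and HELLS KO cells (3 each) were made by the authors from total RNA with a directional kit. Per the labels and the study's methods, reads were aligned with STAR (2.7.3a) to GRCh38, duplicates and reads with a mapping quality under 20 were removed, and featureCounts (2.0.6) gave the deposited raw counts per gene. The authors also deposited FPKM values, normalised with DESeq2 (1.44.0). Annotation version and strand setting are not given in the sources used here. Members, lists and partner pairs were chosen with earlier results of these data known.

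Counts were tested with edgeR 4.0.16 (R 4.3.3) over all genes: filterByExpr, TMM, glmQLFit and glmQLFTest on genotype, with Benjamini-Hochberg adjustment. Partner ratios used exact permutation tests. Alternatives were DESeq2 1.42.0, upper-quartile scaling, other filters, the replicate number as a block, a batch term, each library or replicate 3 left out, and limma 3.58.1 on log2(FPKM + 1) and log2(FPKM + 0.1). Deviations from genotype means correlated at 0.416, 0.197 and 0.778 for same-numbered libraries, so the numbers were treated as pairs. Crossed libraries of replicates 1 and 2 correlated at 0.591 (HAP1 2, HELLS KO 1) and 0.330 (HAP1 1, HELLS KO 2), so the pairing within replicates 1 and 2 rests on the labels' numbers, and replicate 3 stands apart. Members named in full had the 3 largest or smallest fold changes, or the highest or lowest FPKM of a pathway. Others belonged to a described partner pair. LIG4, CHEK2, CLSPN, PRKDC and REV3L, and POLD4, MSH5 and APLF of the other lists, were added after values were seen. Total counts set the precision, and intervals cover the spread between these libraries. The code was tested on simulated counts.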

Additional observations from a re-analysis of the deposited data

How the results depend on the processing

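In every alternative, DESeq2, both limma fits and each left-out library included, 0 members and 0 of the other pathway genes were called. With the replicate block 0 members were called and 43 intervals lay inside 2-fold. The number of intervals inside 2-fold ran from 33 to 43 over the alternatives. Over all tested genes the calls numbered 398, but 615 without a filter, 77 with at least 10 counts in every library, 630 with the replicate block, 624 with DESeq2 and the block, 656 with a batch term and 230 with limma on log2(FPKM + 1). With 1 library left out they ran from 152 without HELLS KO replicate 2 to 449 without HAP1 replicate 3. The median log2 fold change of the members ran from -0.093 without HELLS KO replicate 3 to 0.157 without HAP1 replicate 3. The cause was not tested.

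Estimates near 0 changed sign with 1 library left out, and none of these had passed a test. The log2 fold change then ran from -0.24 to 0.22 for H2AX, -0.07 to 0.04 for MSH6, -0.42 to 0.02 for POLI, -0.20 to 0.52 for POLN, -0.06 to 0.21 for PRIMPOL and -0.18 to 0.13 for XRCC6. Differences of partner ratios ran from -0.09 to 1.00 for ATR/ATRIP, -0.09 to 0.10 for CHEK1/CHEK2, -0.43 to 0.09 for MSH6/MSH3, -0.14 to 0.07 for PMS2/PMS1, -0.12 to 0.01 for POLH/RAD18, -0.37 to 0.09 for RAD9A/RAD1, -0.42 to 0.73 for REV3L/MAD2L2, -0.04 to 0.18 for RNF8/RNF168, -0.20 to 0.09 for TOPBP1/CLSPN, -0.27 to 0.07 for TP53BP1/RIF1 and -0.03 to 0.09 for XRCC5/XRCC6. With replicates 1 and 2 only, CHEK1/CHEK2 was 0.05. Few counts limit NHEJ1, ATRIP and MLH3, and an interval past 2-fold leaves SHLD3, LIG4, REV3L and ATM unresolved without the block.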

Other observations

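Cell cycle genes were also close to equal between the genotypes. Of 28 genes of S phase, such as the MCM helicase subunits, 0 were called and 0 had an unadjusted p under 0.05 in edgeR, with a median log2 fold change of 0.006. Of 22 genes of G2 and M phase, such as the cyclin genes CCNB1 and CCNB2, 0 were called and 0 had such a p, with a median of 0.013. Summed CPM of the S phase genes ran from 4269 to 4826 in HAP1 and from 4218 to 4997 in HELLS KO, and that of the G2 and M phase genes from 3776 to 3857 and from 3687 to 4187. In the fit with the replicate block, TAL1 among the leukocyte markers and COL1A1, a collagen gene, among the fibroblast markers had an unadjusted p under 0.05, with log2 fold changes without the block of -0.22 and -0.58 and adjusted p values with it of 0.34 and 0.20 from edgeR.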
